A study of Mus musculus with 4 samples.

Results

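The genes described here handle organic cations and catecholamines in the inguinal fat depot (ingWAT), a white adipose tissue under the skin. They are 6 transporter genes, *Slc22a3* (Oct3), *Slc22a2* (Oct2), *Slc29a4* (Pmat), *Slc22a4* (Octn1), *Slc22a5* (Octn2) and *Slc47a1* (Mate1), and the 2 monoamine oxidase genes, *Maoa* and *Maob*. Their rows were taken by symbol, to ask whether another low-affinity transporter or a degrading enzyme was higher where *Slc22a3* was lost. All 8 symbols were found among the 19030 genes of the expression table. Both genotypes were C57BL/6 mice aged 3 months and kept at 4°C, and the study's methods describe male mice for cold exposure. Ctrl mice were Oct3 fl/fl, with loxP sites around exon 2 of *Slc22a3*, and cKO mice (labelled Oct3 deficient) had the same alleles and an Adiponectin-Cre transgene. This Cre is driven by the promoter of an adipocyte gene, so other cells of the depot keep an intact *Slc22a3*. Each genotype had 2 libraries, and neither the labels nor the methods give the number of mice in a library, so p-values measure only the spread between these libraries, which may be technical.

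Norepinephrine (NE) released by sympathetic nerves is removed from the tissue by uptake and then broken down inside cells. Neurons take up catecholamines and serotonin through the high-affinity carriers Slc6a2, Slc6a3 and Slc6a4 (uptake 1), of which Slc6a2 is the NE transporter. Other cells use polyspecific carriers of low affinity and high capacity, among them Oct3, Oct2 and Pmat (uptake 2). Octn1 and Octn2 belong to the same Slc22 family but are known for the transport of ergothioneine and of carnitine, and Mate1 exports organic cations in exchange for protons. Monoamine oxidases sit on the outer mitochondrial membrane and deaminate catecholamines to aldehydes.

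Expression was given as FPKM, a read abundance divided by transcript length and library size, so levels can be compared between genes. FPKM summed to 484152 to 497840 per library, and the depth, estimated from the steps between low FPKM values, was 17400000 to 18150000 reads. The 12658 genes with a mean of at least 1 FPKM were tested between genotypes by limma on a log2(FPKM + 1) scale, and a gene was called at a Benjamini-Hochberg adjusted p under 0.05. A log2 fold change is cKO over Ctrl on that scale and tends to understate the change of low genes. Of the genes tested 25.8% were called, 12.0% higher and 13.8% lower in cKO. The depot's adipocyte markers were present in all 4 libraries, with *Adipoq* at 1527 and 1485 FPKM in Ctrl and 966 and 1046 FPKM in cKO. RNA of skeletal muscle separated the genotypes, since 7 marker genes summed to 1908 and 1270 FPKM in the Ctrl libraries and to 7.51 and 6.38 FPKM in the cKO libraries.

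The loxP-flanked exon is shown because it is the part of *Slc22a3* that differs between the genotypes by design. Exon 2 lies at chr17:12464457-12464560 on the minus strand of GRCm38, is 104 bases long and wholly coding, and is printed 5′ to 3′ along the transcript, with no base singled out.
*Slc22a3* exon 2: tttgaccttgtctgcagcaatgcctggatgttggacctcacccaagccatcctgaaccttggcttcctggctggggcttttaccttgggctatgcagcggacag
Because 104 is no multiple of 3, joining exon 1 to exon 3 shifts the reading frame, and on the reference sequence the joined frame stops after 249 residues, of which 138 come from exon 1, against 551 residues in the full protein. Exon 2 makes up 2.97% of the transcript of 3504 bases and 97.03% lies outside it. A gene-level FPKM is therefore hardly a measure of the deleted exon, and a transcript that lacks it can still be counted.

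**Figure D1:**
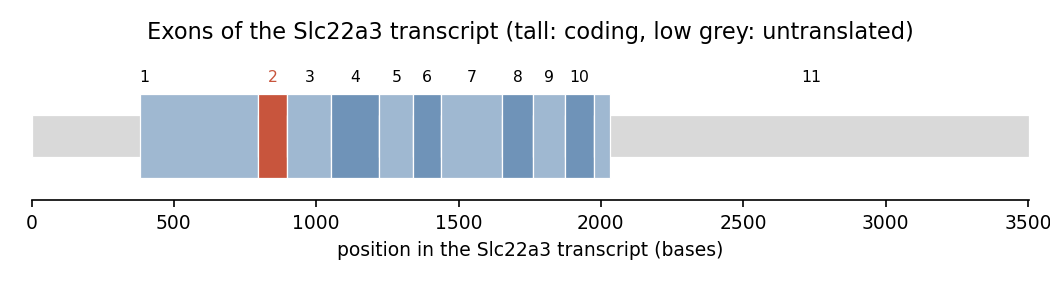
Map of the 11 exons along the Slc22a3 transcript, with the position in bases on the x axis, tall boxes for coding and low grey boxes for untranslated bases. Exon 2, the loxP-flanked exon, is drawn in red and spans bases 795 to 898 of the 3504.

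Of the 8 genes, 5 passed the filter on the mean, and among these 3 fell in cKO (*Slc22a3*, *Slc22a4* and *Maoa*), 1 rose (*Slc22a5*) and 1 was not called (*Maob*). The other 3, *Slc22a2*, *Slc47a1* and *Slc29a4*, stayed under 1 FPKM in all 4 libraries. Among all genes tested, 13.8% were called lower and 12.0% higher in cKO, and 5 genes are few to set against these shares. The Ctrl and cKO libraries did not overlap for any of the 5 genes tested, which was also true of 66.5% of all genes tested (31.9% higher and 34.6% lower in cKO). A larger absolute log2 fold change than that of *Slc22a3* was found in 3.20% of the genes tested, larger than that of *Slc22a4* in 5.87%, than that of *Maoa* in 18.7% and than that of *Slc22a5* in 31.7%. In RNA of a whole tissue, fewer cells of a type and less RNA per cell cannot be told apart, and this holds for each change below.

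**Figure D2:**
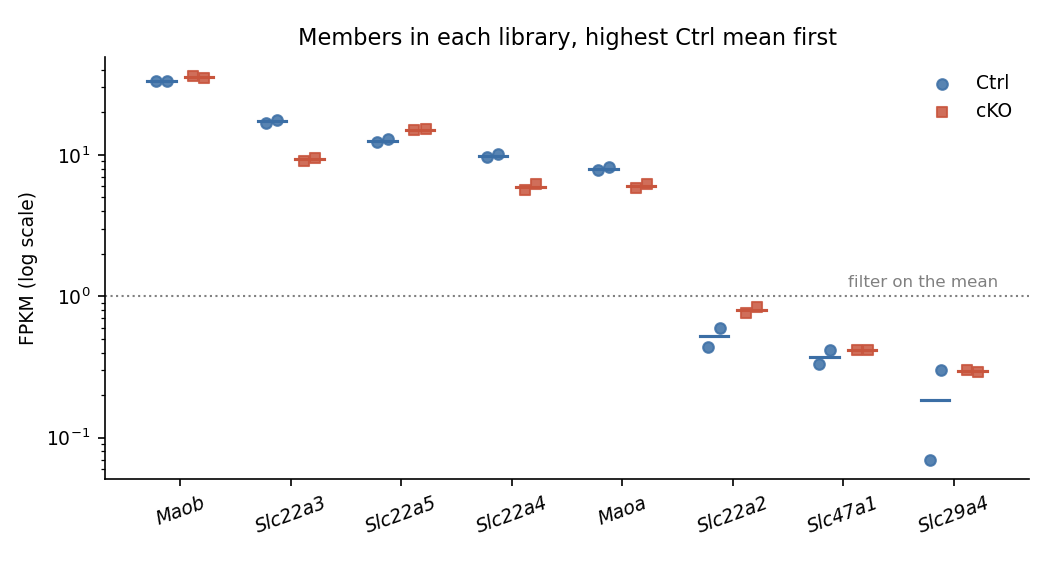
FPKM (log scale) of each gene in the 2 Ctrl libraries (circles) and the 2 cKO libraries (squares), with a bar at the mean of each genotype and a dotted line at the filter of 1 FPKM. Maob was highest in both genotypes at 33.5 to 36.1 FPKM, while Slc22a2, Slc47a1 and Slc29a4 lay under 1 FPKM throughout.

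*Slc22a3* (gene ID 20519, chr17:12419969-12507704, minus strand, 11 exons) encodes Oct3 and is the targeted gene. It was measured at 16.95 and 17.68 FPKM in the Ctrl libraries and at 9.07 and 9.50 FPKM in the cKO libraries. Neither cKO library reached the lower of the Ctrl values, and the direction is that of the labels. The mean went from 17.3 ± 0.516 (SD, n = 2) to 9.29 ± 0.304 FPKM (SD, n = 2), that is, it fell by 46.4%, with a log2 fold change of −0.83 (SE 0.066, limma adjusted p = 0.000439). The remaining level stood on an estimated 547 and 578 reads, with a 95% Poisson interval of 502 to 595 for the lower. No 50-base stretch of its transcript recurred in another gene's transcript, so a read of that length without mismatches fits no other gene. Which cells the remaining RNA came from, and whether it held exon 2, was not tested here. For the protein, the study reported disruption of Oct3 in cKO fat from immunohistochemistry and western blots. The fall in RNA is no measure of that loss.

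Among the other carriers of uptake 2, *Slc22a2* (gene ID 20518, chr17:12584132-12628488, plus strand, 11 exons) encodes Oct2, which is known mainly from kidney and lies close to *Slc22a3* on the same chromosome. Its level was 0.44 and 0.60 FPKM in Ctrl and 0.76 and 0.84 FPKM in cKO. Both cKO libraries were above both Ctrl libraries. These levels correspond to an estimated 17 and 23 reads in Ctrl and 29 and 32 reads in cKO. The 95% Poisson interval of the lowest (9.90 to 27.2 reads) overlapped that of the highest (21.9 to 45.2 reads). Such an overlap concerns counting error in single libraries and is no test between the genotypes. The mean was 0.52 ± 0.113 FPKM (SD, n = 2) in Ctrl and 0.80 ± 0.0566 FPKM (SD, n = 2) in cKO, a log2 difference of 0.25 on the log2(FPKM + 1) scale. The gene was under the filter, and with no filter the limma adjusted p was 0.138. Of its 50-base windows, 4.71% recurred elsewhere in the transcriptome, so some of its few reads could have been shared.

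*Slc29a4* (gene ID 243328, chr5:142702101-142722490, plus strand, 11 exons) encodes Pmat, a plasma membrane monoamine transporter known best from brain. It was measured at 0.07 and 0.30 FPKM in Ctrl and at 0.30 and 0.29 FPKM in cKO, so the genotypes overlapped. One Ctrl library stood below the other 3, on an estimated 3 reads against 14 or 15. The log2 difference was 0.13 with all libraries and −0.01 without Ctrl replicate 1, and with no filter the limma adjusted p was 0.479. *Slc22a2* and *Slc29a4* together summed to 0.51 and 0.90 FPKM in Ctrl and to 1.06 and 1.13 FPKM in cKO. The difference of their means, 0.39 FPKM, stood beside a fall of *Slc22a3* by 8.03 FPKM.

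*Slc22a4* (gene ID 30805, chr11:53983123-54028090, minus strand, 10 exons) encodes Octn1, the ergothioneine transporter. Its level was 9.59 and 10.22 FPKM in the Ctrl libraries and 5.66 and 6.24 FPKM in the cKO libraries. Both cKO libraries lay well below both Ctrl libraries. The mean went from 9.91 ± 0.445 (SD, n = 2) to 5.95 ± 0.410 FPKM (SD, n = 2), a ratio of 0.601, with a log2 fold change of −0.65 (95% interval −0.84 to −0.46, limma adjusted p = 0.00179). It kept its call under all 11 alternative settings, which included leaving out each library. Among the 5 genes tested its change was the next in size after that of *Slc22a3*, in the same direction.

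*Slc22a5* (gene ID 20520, chr11:53864542-53891660, minus strand, 10 exons) encodes Octn2, the high-affinity, sodium-dependent carnitine transporter of the plasma membrane, and lies near *Slc22a4* on the same strand. It was measured at 12.29 and 12.96 FPKM in Ctrl and at 15.01 and 15.19 FPKM in cKO. Both cKO libraries were above both Ctrl libraries, opposite to *Slc22a4*. The mean went from 12.6 ± 0.474 (SD, n = 2) to 15.1 ± 0.127 FPKM (SD, n = 2), a ratio of 1.2, with a log2 fold change of 0.24 (95% interval 0.09 to 0.39, limma adjusted p = 0.0325). This call was lost when any of the 4 libraries was left out, with limma adjusted p between 0.0919 and 0.203 (log2 fold change 0.21 to 0.28), and also with no filter (0.0637) and without a trend of the variance (0.0538). Of the 50-base windows of *Slc22a5*, 27.15% recurred elsewhere, 812 of 818 of them in its paralog *Slc22a21* (Octn3), so reads of these stretches could have been assigned to either gene. *Slc22a21* itself was listed at 0.72 and 0.68 FPKM in Ctrl and 0.43 and 0.52 FPKM in cKO, small beside *Slc22a5*.

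The balance of these neighbouring carriers differed between the genotypes. The ratio of *Slc22a5* to *Slc22a4* was 1.28 and 1.27 in the Ctrl libraries and 2.65 and 2.43 in the cKO libraries. Their summed level was 21.88 and 23.18 FPKM in Ctrl and 20.67 and 21.43 FPKM in cKO, a difference of −1.48 FPKM between the means (cKO minus Ctrl). The difference between their fold changes was not tested.

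*Slc47a1* (gene ID 67473, chr11:61343401-61378081, minus strand, 17 exons) encodes Mate1, the exporter that works with organic cation transporters in kidney and liver. It was at 0.33 and 0.42 FPKM in Ctrl and at 0.42 and 0.42 FPKM in cKO, on an estimated 16 to 19 reads. The genotypes overlapped, and with no filter the limma adjusted p was 0.607. Its relative *Slc47a2* was at 0.02 FPKM or less. Both *Slc29a4* and *Slc47a1* were under the filter, so the main comparison did not test them. With no filter neither was called, and the size of difference that could have been called at these few reads was not tested.

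Summed over the 5 transporter genes other than *Slc22a3*, the level was 22.72 and 24.50 FPKM in Ctrl and 22.15 and 22.98 FPKM in cKO. The genotypes overlapped, with means of 23.6 ± 1.26 and 22.6 ± 0.587 FPKM (SD, n = 2 each). With *Slc22a3* included, the sum was 39.67 and 42.18 FPKM in Ctrl and 31.22 and 32.48 FPKM in cKO, a difference of −9.08 FPKM between the means (cKO minus Ctrl). *Slc22a3* made up 42.7% and 41.9% of this sum in Ctrl and 29.1% and 29.2% in cKO. No rise in the other transporters of the size of the loss of *Slc22a3* was therefore seen at the RNA level. A sum of FPKM weighs all carriers alike and is no measure of NE transport.

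**Figure D3:**
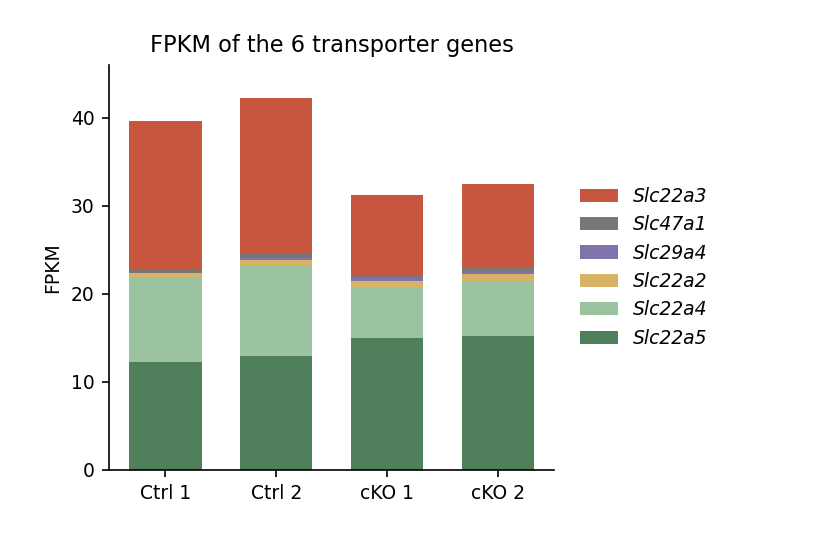
FPKM of the 6 transporter genes stacked per library, from 0. The part below Slc22a3 (red) reached 22.2 to 24.5 FPKM in all 4 libraries, while the whole stack was 39.7 and 42.2 FPKM in Ctrl and 31.2 and 32.5 FPKM in cKO.

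For the breakdown of catecholamines, *Maoa* (gene ID 17161, chrX:16619698-16687818, plus strand, 15 exons) encodes the oxidase that prefers serotonin and NE. Its level was 7.77 and 8.22 FPKM in Ctrl and 5.86 and 6.19 FPKM in cKO. The cKO values were both under the Ctrl values. The mean went from 8.0 ± 0.318 (SD, n = 2) to 6.03 ± 0.233 FPKM (SD, n = 2), a ratio of 0.754, with a log2 fold change of −0.36 (95% interval −0.54 to −0.18, limma adjusted p = 0.0142). The call was lost without Ctrl replicate 1 (0.101), Ctrl replicate 2 (0.122) or cKO replicate 1 (0.0631), and with no filter (0.0553), all limma adjusted p. The log2 fold change itself stayed between −0.40 and −0.32 over the 11 alternatives.

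*Maob* (gene ID 109731, chrX:16709282-16817366, minus strand, 15 exons) lies beside *Maoa* in the opposite orientation and encodes the oxidase that prefers phenylethylamine and benzylamine. It was measured at 33.57 and 33.50 FPKM in Ctrl and at 36.05 and 34.84 FPKM in cKO. Both cKO libraries were slightly above both Ctrl libraries. The means were 33.5 ± 0.0495 and 35.4 ± 0.856 FPKM (SD, n = 2 each), and the log2 fold change was 0.08 (95% interval −0.05 to 0.21, limma adjusted p = 0.351). On the scale of FPKM + 1 the interval of the ratio ran from 0.963 to 1.16. The gene was called under none of 11 alternatives.

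*Maob* was the more abundant oxidase gene in every library. The summed level of both was 41.34 and 41.72 FPKM in Ctrl and 41.91 and 41.03 FPKM in cKO, and the genotypes overlapped, since the difference in *Maoa* and the uncalled one in *Maob* were of like size and opposite sign. The ratio of *Maob* to *Maoa* was 4.32 and 4.08 in Ctrl and 6.15 and 5.63 in cKO. Neither oxidase gene was called higher in cKO.

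**Figure D4:**
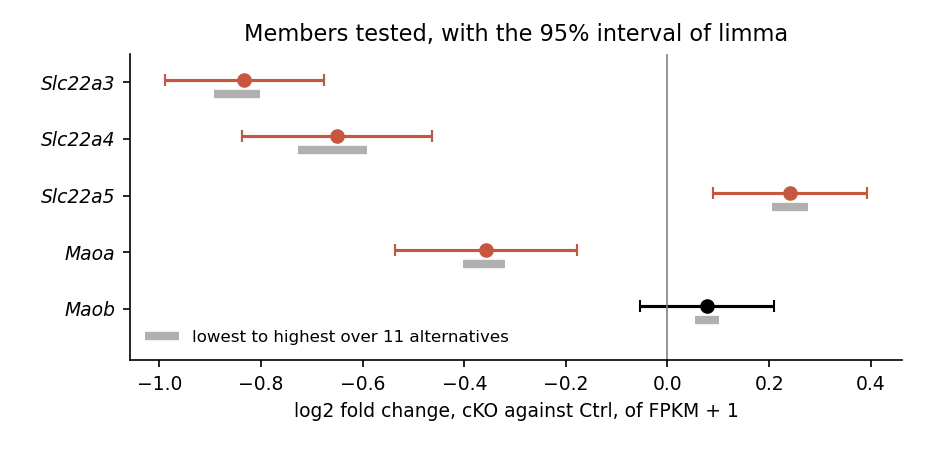
Log2 fold change of cKO against Ctrl for the 5 genes tested (points) with the 95% interval of limma (whiskers, red where called) and the range over 11 alternatives (grey bars). Slc22a3, Slc22a4 and Maoa lie below 0, Slc22a5 above 0, and the interval of Maob, −0.05 to 0.21, includes 0.

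In Ctrl the order of levels from the top was *Maob*, *Slc22a3*, *Slc22a5*, *Slc22a4*, *Maoa*, *Slc22a2*, *Slc47a1* and *Slc29a4*. No neighbours in this order overlapped between their libraries, although the last 3 rest on 3 to 23 estimated reads each. In cKO *Slc22a5* stood above *Slc22a3*, and *Maoa* and *Slc22a4* could not be ordered, at 5.86 and 6.19 against 5.66 and 6.24 FPKM. Among all genes listed, the percentile of the mean FPKM was 88.4 for *Maob* and 73.6 for *Slc22a3*.

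The sequences before the start sites of the 4 called genes are shown because 3 of them fell and 1 rose in the same tissue. They were taken from RefSeq on GRCm38.p6, which gave an entry for 6 of the 8 genes, and each is the 250 bases before the start, 5′ to 3′ on the gene's strand. Motifs were searched on both strands, and capitals mark TGACG, the start of the cAMP response element TGACGTCA, and the GC box GGGCGG, with a match on the other strand shown as its reverse complement. TGACG was found in 17.77% of 32851 promoters of the same length, the full TGACGTCA in 1.55% and GGGCGG in 32.74%.
*Slc22a3*, chr17:12507705-12507954, minus strand: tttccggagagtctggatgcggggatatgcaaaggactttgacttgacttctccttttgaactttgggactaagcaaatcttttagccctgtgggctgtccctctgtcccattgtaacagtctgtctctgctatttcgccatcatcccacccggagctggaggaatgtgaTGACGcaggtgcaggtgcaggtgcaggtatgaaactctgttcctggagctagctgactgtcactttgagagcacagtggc
*Slc22a4*, chr11:54028105-54028354, minus strand: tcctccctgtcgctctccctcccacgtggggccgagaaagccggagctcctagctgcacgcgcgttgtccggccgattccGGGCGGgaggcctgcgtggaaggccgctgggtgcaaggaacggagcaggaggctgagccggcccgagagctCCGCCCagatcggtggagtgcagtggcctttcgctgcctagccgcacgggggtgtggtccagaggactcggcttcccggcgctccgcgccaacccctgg
*Slc22a5*, chr11:53891704-53891953, minus strand: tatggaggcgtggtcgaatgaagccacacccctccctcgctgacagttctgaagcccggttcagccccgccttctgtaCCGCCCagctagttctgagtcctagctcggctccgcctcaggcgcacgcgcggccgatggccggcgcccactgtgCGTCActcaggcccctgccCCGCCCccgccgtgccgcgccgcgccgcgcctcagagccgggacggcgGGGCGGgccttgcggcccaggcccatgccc
*Maoa*, chrX:16619448-16619697, plus strand: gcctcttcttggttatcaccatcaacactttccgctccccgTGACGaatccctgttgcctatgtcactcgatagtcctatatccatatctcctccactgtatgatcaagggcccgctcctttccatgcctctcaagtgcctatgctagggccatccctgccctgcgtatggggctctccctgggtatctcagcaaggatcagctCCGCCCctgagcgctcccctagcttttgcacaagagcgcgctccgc
*Slc22a3*, *Slc22a5* and *Maoa* each held 1 match to TGACG in this window, and none of the 4 held the full TGACGTCA. GGGCGG was matched 2 times before *Slc22a4*, 3 times before *Slc22a5*, 1 time before *Maoa* and not before *Slc22a3*. The windows of *Slc22a4* and *Slc22a5* were rich in G and C (71.2% and 73.6%) with 26 and 30 CpG, against 51.2% and 5 CpG for *Slc22a3* and a median of 52.4% and 6 CpG over all promoters. A match is a description of letters, and binding was not measured.

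The wider route of catecholamine handling was followed in a list of 25 further genes, of which 22 were listed and 13 passed the filter. Of these 4 were called lower and 0 higher, and the median of their log2 fold changes was 0.04, against −0.01 over all genes tested. Over all genes tested 13.8% were called lower and 25.8% either way, and 13 genes are few to set against these shares. The uptake 1 carriers were all under 1 FPKM. *Slc6a2*, the NE transporter of sympathetic neurons, was at 0.24 and 0.18 FPKM in Ctrl and 0.10 FPKM in both cKO libraries. *Slc6a4*, the serotonin transporter, was at 0.92 and 0.87 against 0.57 and 0.88 FPKM, and *Slc6a3*, the dopamine transporter, was at 0.02 FPKM or less. *Slc22a3* was 70.6 and 98.2 times *Slc6a2* in Ctrl and 90.7 and 95 times in cKO. *Slc6a2* was under the filter, so these ratios rest on a very low level. They compare RNA in the depot and do not measure uptake by nerves. The synthesis genes *Th* and *Dbh* were not found by symbol among the genes listed, so they were not analysed here.

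*Rnls*, which encodes renalase, was at 1.44 and 1.88 FPKM in Ctrl and at 1.86 and 1.59 FPKM in cKO and was not called. *Akr1a1*, an aldehyde reductase, was at 300.01 and 300.49 against 309.69 and 300.80 FPKM and was not called.

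The 4 genes that fell act on wider sets of substrates than catecholamines. *Aoc3*, the semicarbazide-sensitive amine oxidase of the adipocyte surface, which acts on primary amines such as methylamine, fell from 242.18 and 246.15 to 150.96 and 153.87 FPKM (log2 fold change −0.68, limma adjusted p = 0.000485). *Aldh1a1*, known for the oxidation of retinaldehyde, fell from 51.57 and 51.05 to 20.85 and 24.68 FPKM (log2 fold change −1.14, limma adjusted p = 0.000351). *Sult1a1*, a phenol sulfotransferase, fell from 93.18 and 89.04 to 46.78 and 54.20 FPKM (log2 fold change −0.84, limma adjusted p = 0.000756). These 3 genes kept their calls under all 11 alternatives. *Aldh2*, the mitochondrial aldehyde dehydrogenase, fell from 443.75 and 433.34 to 386.99 and 361.74 FPKM (log2 fold change −0.23, limma adjusted p = 0.0426), and this call held under 4 of 11 alternatives and was lost without Ctrl replicate 1, Ctrl replicate 2 or cKO replicate 2, with adjusted p up to 0.255.

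Carnitine, the substrate of Octn2, carries long-chain fatty acids into mitochondria. Of 9 genes of carnitine synthesis and the carnitine shuttle, 7 were tested, and 4 of these rose and 0 fell. The median of their log2 fold changes was 0.39, and 12.0% of all genes tested were called higher. The list was chosen with earlier results of these data known, and 7 genes are few to set against this share. Whether the rise was particular to carnitine genes was not tested. *Slc25a20*, the carnitine-acylcarnitine carrier of the inner membrane, rose from 122.57 and 142.12 to 232.12 and 212.20 FPKM (log2 fold change 0.75, limma adjusted p = 0.00143). *Cpt1b*, the muscle and brown fat form of the outer-membrane enzyme, rose with a log2 fold change of 1.42, *Cpt2* with 0.55 and *Crat*, the carnitine acetyltransferase, with 0.39. The calls of *Cpt2* and *Crat* were lost without Ctrl replicate 1, with limma adjusted p of 0.060 and 0.0773. The liver form *Cpt1a* was at 13.38 and 13.08 FPKM in Ctrl and at 12.59 and 14.06 FPKM in cKO, and the synthesis gene *Bbox1* was at 0.04 FPKM or less.

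Apart from *Slc22a2* to *Slc22a5*, 16 genes of the Slc22 family were listed, *Slc22a21* among them, and 4 were tested. Of these 4, 2 fell and 0 rose, the median of the log2 fold changes being −0.23, beside 13.8% called lower over all genes tested. With 4 genes tested these counts say little about the family. *Slc22a18*, an orphan member of the family, fell from 5.06 and 5.43 to 3.40 and 3.44 FPKM (log2 fold change −0.50, limma adjusted p = 0.00606), and the call was lost without either Ctrl library. *Slc22a17*, known as a receptor for lipocalin 2, fell from 9.57 and 8.79 to 7.37 and 7.44 FPKM (log2 fold change −0.28, limma adjusted p = 0.0340), and the call was lost without any library. *Slc22a23* was at 8.02 and 8.30 FPKM in Ctrl and 6.77 and 7.26 FPKM in cKO, with a limma adjusted p of 0.102. No further member of the family was above 2 FPKM.

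**Figure D5:**
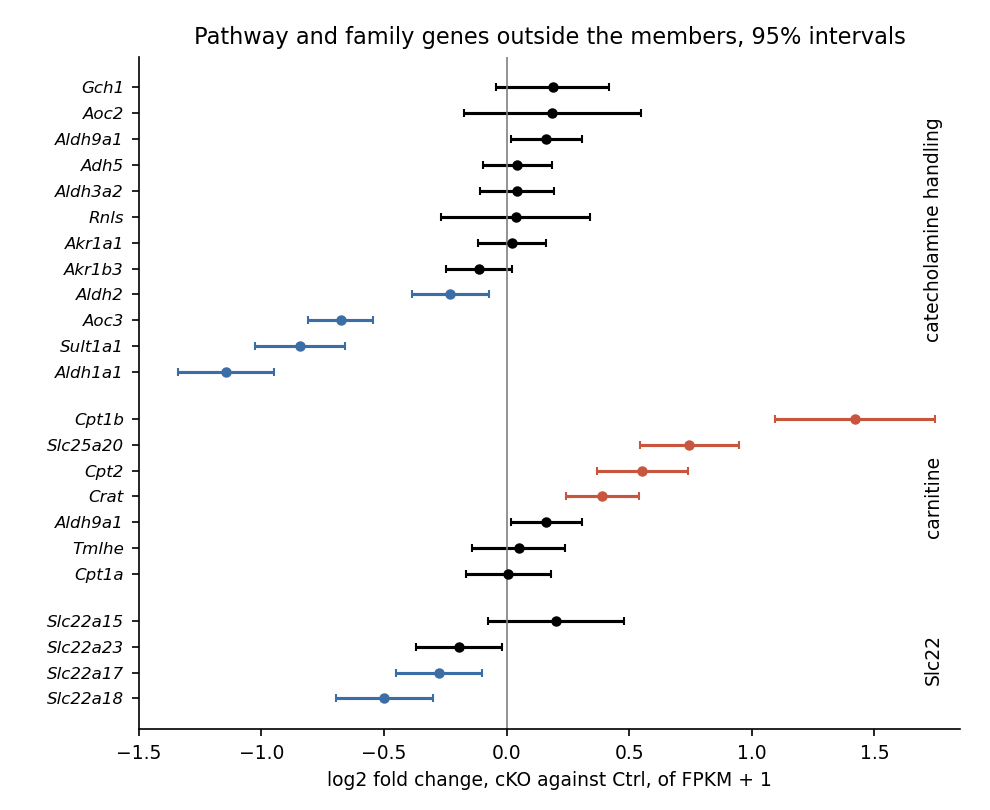
Log2 fold change of cKO against Ctrl with the unadjusted 95% interval of limma for tested genes of the catecholamine list (12 of 13), the carnitine list and the rest of the Slc22 family (red called higher, blue called lower, black not called). The 4 called catecholamine genes lie between −1.14 and −0.23 and the 4 called carnitine genes between 0.39 and 1.42.

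The genes whose profile over the 4 libraries was most like that of *Slc22a3*, by the Euclidean distance of centred log2(FPKM + 1), were *Rtn4rl2* (0.0309), *Mr1* (0.0361) and *B3galnt1* (0.0415) out of 12656 genes. The distance was under 0.1 for 17 genes. With 4 libraries in 2 genotypes this measure mostly records the size of the difference between the genotypes. *Mr1* was at 23.79 and 24.26 FPKM in Ctrl and at 12.81 and 13.04 FPKM in cKO.

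Markers of several cell types were called between the genotypes, beside 25.8% of all genes tested that were called either way. With few markers per type, small counts of calls say little. Among white adipocyte markers 3 of 7 were called lower, and their sum was 21350 and 21597 FPKM in Ctrl and 17456 and 17743 FPKM in cKO. Most of this sum was *Fabp4*, which was not called, at 15874 and 16398 FPKM in Ctrl and 13456 and 13616 FPKM in cKO. All 7 brown and beige adipocyte markers were called higher, from 1516 and 1792 to 4778 and 4038 FPKM. All 7 skeletal muscle, all 6 Schwann cell and 4 of 5 fibroblast progenitor markers were called lower, the last from 740 and 643 to 354 and 367 FPKM. Between the Ctrl libraries the muscle sum also differed, at 1908 and 1270 FPKM. B cell markers (4 of 4) and T cell markers (3 of 4) were called higher, and macrophage markers went both ways, with 1 of 6 higher and 3 lower. Endothelial markers were called lower in 3 of 5, mast cell and erythroid markers in 2 of 6 and 2 of 5, smooth muscle markers once in each direction, the only sympathetic marker tested was not called, and epithelial markers summed to 0.65 FPKM or less. The part of these cell types in the changes of the transporter and oxidase genes was not tested.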

How the data were processed

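The authors sequenced polyadenylated RNA as 50-base single-end reads and deposited 1 table of FPKM per gene and library. The submitters' processing notes name HISAT2 2.0.4, RSEM 1.2.12 and mm10, without giving their roles. No scaling between libraries and no strand marking is stated. Dates stood in place of 24 symbols, and 0 per-sample columns were left unused. Depth was estimated from 299 genes for RNAs of at most 400 bases. With 36 bases taken off each length, 85.1% to 91.1% of values up to 6 reads came out whole within 0.1. The depths and the 36 bases were chosen to make this share largest, so it is no separate check of the estimates. Whole counts were not recovered in general, so no count test was run. Estimated reads and Poisson intervals cover counting error only.

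Genes with a mean of at least 1 FPKM over the 4 libraries were compared on log2(FPKM + 1) by limma (version 3.58.1, R 4.3.3, two-sided, eBayes with a trend, Benjamini-Hochberg adjustment over 12658 genes). The procedure was also run on simulated data with independent normal noise of the fitted spread. That run cannot show whether calls hold for 2 libraries per genotype that may be technical. The members and lists were chosen with earlier results of these data known. The RNA-seq section of the study's methods names no model for the comparison of the genotypes. All 8 members are named. From the catecholamine, carnitine, Slc22 family and neighbour lists, *Slc6a2*, *Slc6a3*, *Slc6a4*, *Rnls*, *Aoc3*, *Th* and *Dbh* were always to be named, with the 4 called genes of largest change and the 2 of highest mean in each list. The 3 genes most like *Slc22a3* are also named. Some genes of the lists are not reported here and enter only the counts. *Slc22a21*, *Slc47a2*, *Cpt1a*, *Bbox1*, *Adipoq* and *Fabp4* are named for the members' context, after their values were seen. Alternatives were no filter, a filter at 5 FPKM, a pseudocount of 0.1, median-of-ratios scaling and quantile normalization. Others were a replicate block, eBayes without a trend and each library left out. These are the 11 alternatives given for single genes. An absolute log2 fold change of 1 was added only for the number of genes called, and no member tested reached it. Gene positions come from GRCm38 (GENCODE and RefSeq), promoters from RefSeq, and 50-base windows were compared between transcripts. Python 3.11.15 with pandas 2.3.3, numpy 2.4.6, scipy 1.17.1 and matplotlib 3.10.9 was used otherwise.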

Additional observations from a re-analysis of the deposited data

How the results depend on the processing

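*Slc22a3* and *Slc22a4* were called under all 11 alternatives, with log2 fold changes of −0.89 to −0.80 and −0.73 to −0.59, and *Maob* under none. *Slc22a5* lost its call with no filter (0.24) and without a trend (0.24), and when each library was left out (0.21 to 0.28). *Maoa* lost it with no filter (−0.36) and in 3 of 4 fits without a library (−0.39 to −0.32). A pseudocount of 0.1 gave log2 differences of 0.55 for *Slc22a2*, 0.60 for *Slc29a4* and 0.14 for *Slc47a1*, whose value without 1 library ran from 0.00 to 0.094. The 3269 genes called became 1762 with no filter, 233 with an added absolute log2 fold change of 1, and 787 to 2340 without 1 library, where the lone sample of a genotype is assumed to vary like the others. In the Slc22 family the 2 calls became 1 with no filter, 1 with a mean of at least 5 FPKM and 0 to 1 without 1 library, and in the carnitine list the 4 calls became 2 without Ctrl replicate 1 and were 2 to 4 over the libraries left out. With the replicate number as a block 3383 genes were called and no member's call changed, while *Aldh2* lost its call, but same-numbered libraries did not deviate together (r = 0.0148 across 12658 genes, which are not independent replicates), so the numbers were not taken as pairs. Median-of-ratios scaling and quantile normalization moved the median over all genes by less than 0.1, and the difference in summed transporters other than *Slc22a3* was −0.89 and −0.61 FPKM under them against −1.04 FPKM as deposited. With 2 libraries per genotype and an estimated 17400000 to 18150000 reads, members under 1 FPKM rest on at most 32 reads each.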

Other observations

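Genes beside the members on the chromosomes were also read from the table. Of 26 nearest neighbours, 12 were listed and 6 tested, and 2 of these fell and 0 rose, beside 25.8% of all genes tested that were called either way. *Igf2r*, the receptor for insulin-like growth factor 2 in the same cluster as *Slc22a2* and *Slc22a3*, was at 8.92 and 9.20 FPKM in Ctrl and at 9.15 and 9.52 FPKM in cKO and was not called (log2 fold change 0.04). *Plg*, the plasminogen gene on the other side of *Slc22a3*, was at 0.04 FPKM or less. *Gm12216*, a noncoding RNA near *Slc22a5*, was at 4.65 and 3.46 FPKM in Ctrl and at 2.31 and 2.54 FPKM in cKO (log2 fold change −0.55, limma adjusted p = 0.0204), opposite in direction to *Slc22a5*, and the call was lost without Ctrl replicate 1, cKO replicate 1 or cKO replicate 2. *Tnrc18*, next to *Slc29a4*, was at 7.47 and 6.69 FPKM in Ctrl and at 5.39 and 5.81 FPKM in cKO (log2 fold change −0.29, limma adjusted p = 0.0449), and the call was lost without any of the 4 libraries. *Wipi2* and *Pdlim4*, beside *Slc29a4* and *Slc22a4*, had log2 fold changes of 0.18 and 0.06 and were not called. *Igf2r* and *Plg* are named after their values were seen.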
